A study of Mus musculus with 24 samples.

Results

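SmcHD1, cohesin, condensin, the SMC5/6 complex and CTCF were followed here through 10 genes: Smchd1, Smc3, Rad21, Nipbl, Smc2, Smc4, Ncapg, Smc5, Smc6 and Ctcf. The genes were chosen by name, as the entries of the expression table that carry these symbols, and they make up 10 of 23119 genes listed. All 10 passed the filter on low values, a mean of at least 1 FPKM over the libraries, which 12105 genes passed. FPKM, the fragments of a gene per kilobase of transcript and scaled to the mapped fragments of a library, is a level per transcript length, so it can be set side by side between genes.

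The samples were poly(A) RNA libraries of JB4/EI7HZ2, a female mouse embryonic stem cell (mESC) line from a cross of JF1 and B6 mice that carries a drug-resistance gene on each X chromosome, and of SmcHD1-mutant cells (KO) made from it with CRISPR-Cas9. Each genotype was sampled as mESCs in serum medium with 2i and LIF, as day 7 and day 9 cells on the way to neurectoderm, and as neural stem cells (NSCs) kept in FGF2 and EGF. NSCs were made from mESCs by a separate protocol and did not come from day 9 cells. A comparison of day 9 cells with NSCs therefore includes the difference between protocols. There were 3 libraries in each of these 8 groups, 24 in all, and WT cells of the same stage were the controls of the KO. In both genotypes the mESC medium and the media for making and keeping NSCs held G418 and zeocin. The labels name no clone of the mutant cells, so the mutation cannot be told apart from any other difference between the lines. The study describes the RNA-seq of this line and of its differentiating cells as 3 independent biological experiments, and the labels do not say for each group whether the replicates were separate cultures. P-values measure the spread between these libraries.

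SMC proteins are long coiled-coil ATPases that work in pairs and close into rings around DNA. Cohesin extrudes loops and holds sister chromatids together, condensin compacts chromosomes for mitosis, the SMC5/6 complex acts in DNA repair and replication stress, and CTCF is the zinc finger protein at which cohesin loops stop. SmcHD1 is a noncanonical SMC protein that binds the inactive X chromosome and is needed to keep genes on it silent.

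The genes lie on 8 chromosomes of mm9, the build of the deposited table. The spans are the loci listed for the entries and need not be the bounds of the genes. Smchd1 spans chr17:71693834-71824683, Smc3 chr19:53674886-53720321, Rad21 chr15:51794150-51823306 and Nipbl chr15:8241225-8394463. Smc2 is listed at chr4:52452121-52501131, Smc4 at chr3:68808894-68838545 and Ncapg at chr5:46061164-46248779, a locus that may reach beyond Ncapg. Smc5 spans chr19:23280931-23348387, Smc6 chr12:11272692-11326591 and Ctcf chr8:108160438-108206822. Of these, the Ncapg locus overlaps the entries of Lcorl and Gm3414, and the Smc4 locus those of Mir15b and Mir16-2, so reads there could have been counted for either gene. The cohesin partners Smc1a, Stag2 and Hdac8 are X-linked. Reads from the X chromosome had been removed by the authors, and these genes were not analysed here.

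Coding sequences of the 10 genes were rich in adenine, which they share although nothing in their choice used it. The adenine share of the coding strand ran from 31.1% in Rad21 and 31.4% in Ctcf to 36.9% in Smc6 and 38.0% in Smc4, between the 88.5th and the 99.4th percentile of 11510 tested genes with a coding transcript in GENCODE vM1. The coding sequences were also long, from 1908 bases in Rad21 to 8397 bases in Nipbl, at or above the 67.9th percentile. Runs of 4 or more adenines occurred 16.8 times per coding kilobase in Smc4, 16.1 times in Smc6, 15.1 times in Smc2 and 12.4 times in Nipbl, against 4.72 times in Rad21. These sequences are shown as examples of the adenine share, which was highest in Smc4 and Smc6, 34.1% in Nipbl and lowest in Rad21. Smc2, Smc3 and Smc5 had higher shares than Nipbl. The most adenine-rich 100 bases within a coding exon, read 5′ to 3′ on the coding strand of mm9 with runs of 4 or more adenines in capitals, were 60.0% adenine in Smc6 (exon 20 of 27, chr12:11306078-11306177, plus strand), 59.0% in Smc4 (exon 19 of 24, chr3:68835366-68835465, plus strand), 54.0% in Nipbl (exon 9 of 47, chr15:8309077-8309176, minus strand) and 42.0% in Rad21 (exon 6 of 14, chr15:51804636-51804735, minus strand).
Smc6: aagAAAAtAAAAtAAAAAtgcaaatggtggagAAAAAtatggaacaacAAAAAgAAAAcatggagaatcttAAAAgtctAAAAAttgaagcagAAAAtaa
Smc4: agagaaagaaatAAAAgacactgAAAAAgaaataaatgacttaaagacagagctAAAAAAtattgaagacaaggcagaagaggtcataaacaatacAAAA
Nipbl: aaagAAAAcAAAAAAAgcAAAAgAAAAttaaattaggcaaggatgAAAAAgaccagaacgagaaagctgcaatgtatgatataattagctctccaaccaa
Rad21: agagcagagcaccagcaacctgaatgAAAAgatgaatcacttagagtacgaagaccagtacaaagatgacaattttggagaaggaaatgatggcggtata

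Libraries differed beyond their groups. In 4 libraries, replicate 1 of WT mESCs, replicate 3 of KO mESCs, replicate 1 of KO day 7 cells and replicate 3 of WT NSCs, 6 members (Smc2, Smc3, Smc4, Smc6, Nipbl and Ncapg) were each at the lowest level of their group. Taken over the 9 members other than Smchd1, the median log2 deviation from the mean of the other 2 libraries lay between -0.96 and -0.48 in these 4 libraries and between -0.24 and 0.44 in the other 20. These 4 libraries were singled out after the data were seen, as those in which 219 adenine-rich, long genes outside the lists had their lowest median deviation, from -0.31 to -0.17. In the other 20 that deviation ran from -0.15 in replicate 3 of WT day 7 cells to 0.23, so the 4 libraries are the low end of a range rather than a separate cluster. The members were low in these 4 libraries, so leaving them out shifts group means of the members and can narrow their spread. Intervals and calls of that fit follow in part from this choice. Over 11510 genes, the deviation of a library correlated weakly with the coding adenine share in these 4 libraries, with Pearson's r from -0.22 to -0.10, and in the other 20 it ran from -0.14 to 0.27, so these ranges overlapped. That is a description across genes, which are not independent. Whether base composition, RNA quality or culture accounts for this was not tested.

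**Figure D1:**
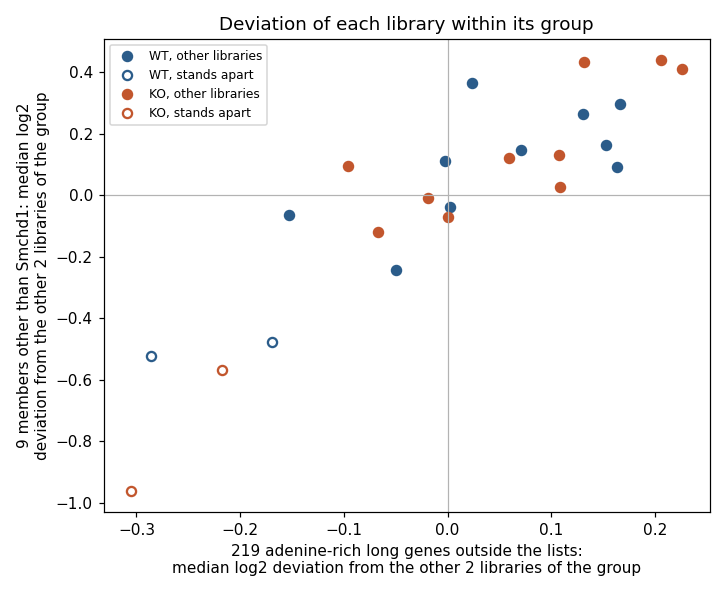
Each point is a library. The x axis gives the median log2 deviation of 219 adenine-rich long genes outside the lists from the other 2 libraries of the group, and the y axis the same for the 9 members other than Smchd1; blue is WT, orange KO, and open circles are the 4 libraries with the lowest x values. The 4 open circles lie at -0.96 to -0.48 on the y axis, below the -0.24 of the lowest filled circle.

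Across the 24 libraries, after removal of group means, Pearson's r between pairs of the 10 genes ran from -0.37 for Smc6 with Rad21 to 0.98 for Smc4 with Smc6. It lay between 0.64 and 0.98 for the 15 pairs of the 6 genes named above. Those 6 were picked because their lowest values fell in the same libraries, so high values among them, and lower ones with genes outside them, follow in part from that choice and are no finding. These values describe the libraries, whose shared depth and composition enter every pair. Nipbl, which encodes the cohesin loader, had the highest coefficient of variation of the 10 genes in mESCs, at 46.0% in WT and 50.9% in KO. It was at 5.30, 14.7 and 13.6 FPKM in WT mESCs and at 15.7, 15.6 and 4.98 FPKM in KO mESCs. The low value of each genotype came from a library named above, and with those libraries set aside both KO values lay above both WT values. The log2 difference was then 0.13 ± 0.19 and was not called.

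The remaining facts on the libraries are brief. Sums of FPKM ran from 504660 to 802938, and the relative read number, read from the step that 1 read makes in 2798 low genes, from 0.811 to 1.15 with the median library at 1. The number of reads is not known, so no counting error could be given. Pluripotency markers summed to 2892 to 3584 FPKM over the libraries of mESCs and to 5.72 to 12.7 FPKM in NSCs, where Zfp42 and Dppa3 were listed at 0 in all libraries. Neural stem cell markers summed to 404 to 449 FPKM in WT mESCs and 451 to 477 FPKM in KO mESCs, and to 5688 to 7264 FPKM in WT NSCs and 4216 to 5061 FPKM in KO NSCs, without overlap between genotypes at either stage, and in KO NSCs 2 of 8 were called lower, and 0 of 8 without the 4 libraries or on the same-sum scale. Day 7 cells differed between genotypes in markers of other lineages: the 8 endoderm markers summed to 61.1 to 152 FPKM in WT and to 1.23 to 4.58 FPKM in KO, and the 8 mesoderm markers to 68.6 to 188 FPKM in WT and to 8.68 to 9.59 FPKM in KO. At day 9 the endoderm markers summed to 28.3 to 53.0 FPKM in WT and 4.79 to 14.6 FPKM in KO, the mesoderm markers to 28.5 to 76.4 FPKM and 17.8 to 22.1 FPKM, and the neuron markers to 554 to 602 FPKM and 284 to 398 FPKM, with 4 of 6 tested neuron markers called lower in KO. In bulk RNA, fewer cells that express a gene and less RNA per cell cannot be told apart, and the part of these marker differences in the members' values was not tested.

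Rad21 was the most abundant member at every stage and Smchd1, Smc5 and Nipbl were among the least. In WT mESCs, Rad21 stood at 127 ± 7.31 FPKM (SD, n = 3), followed by Smc3 at 65.2 ± 13.1, Smc4 at 62.4 ± 19.7, Ctcf at 60.8 ± 18.0, Ncapg at 47.2 ± 5.37 and Smc2 at 43.2 ± 10.7 FPKM. Lower were Smc6 at 29.8 ± 5.93, Smc5 at 18.3 ± 2.12, Smchd1 at 13.5 ± 0.502 and Nipbl at 11.2 ± 5.16 FPKM. In this order the libraries of Rad21 and Smc3, of Smc6 and Smc5 and of Smc5 and Smchd1 did not overlap, and every other pair of neighbours did. In WT NSCs the order was Rad21 at 138 ± 10.6, Ctcf at 47.5 ± 4.40, Smc4 at 41.6 ± 14.5, Smc3 at 29.3 ± 8.05, Smc2 at 26.1 ± 9.30, Ncapg at 18.5 ± 3.77, Smchd1 at 18.0 ± 2.95, Smc6 at 16.2 ± 3.29, Smc5 at 15.2 ± 0.747 and Nipbl at 12.6 ± 4.33 FPKM. Only Rad21 was separated there from its neighbour. Among the tested genes of a library, Rad21 lay between the 91.7th and the 95.4th percentile in all 24 libraries, and Nipbl between the 33.1st and the 64.5th.

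**Figure D2:**
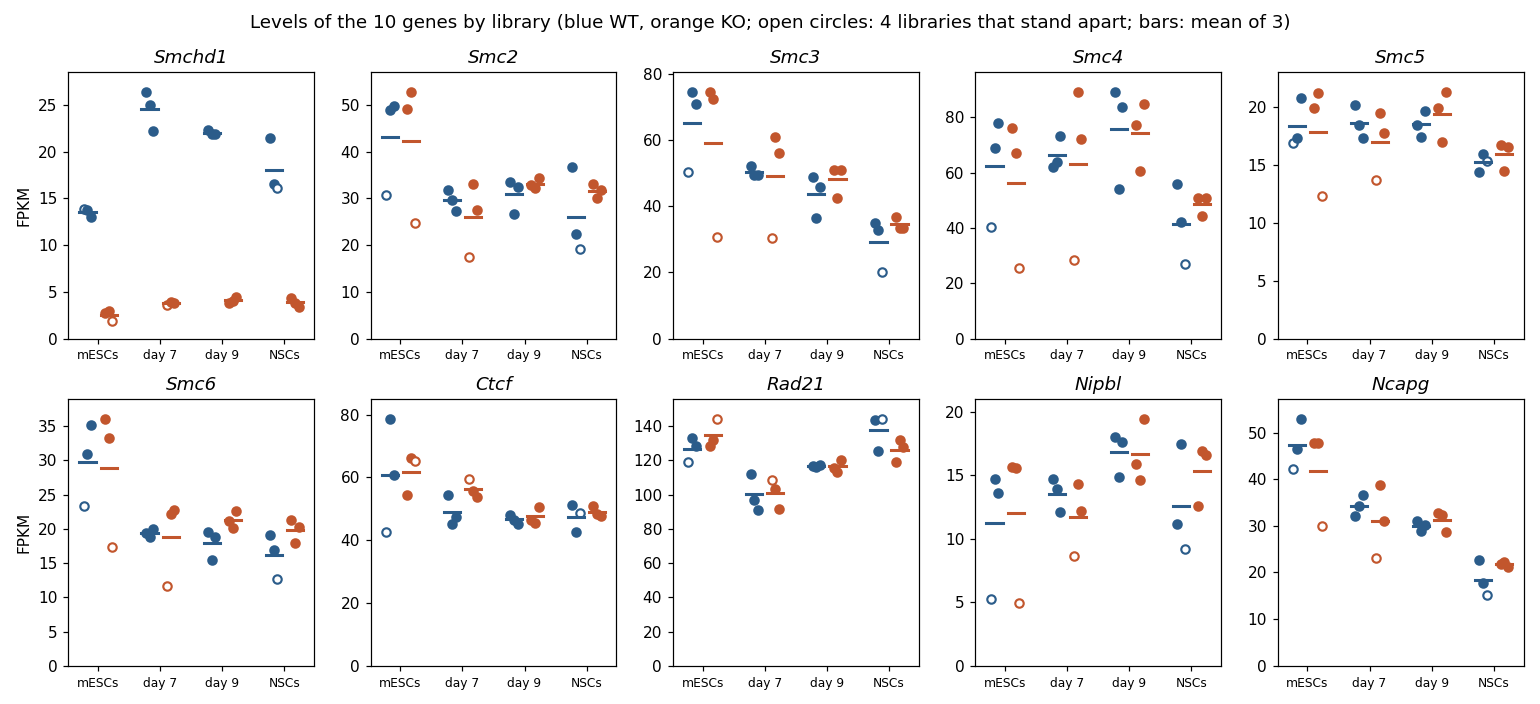
Each panel is a gene, the x axis gives the stage and the y axis FPKM from 0. Points are libraries of WT (blue) and KO (orange), bars are the mean of 3, and open circles mark the 4 libraries that stand apart. Smchd1 of KO lies below 5 FPKM at every stage, below all WT libraries, and the open circles are the lowest points of Smc2, Smc3, Smc4 and Smc6 in their groups.

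Smchd1, the targeted gene, was lower in KO at all 4 stages and its groups never overlapped. In mESCs it was at 13.9, 13.8 and 12.96 FPKM in WT and at 2.71, 2.97 and 1.82 FPKM in KO. In day 7 cells it was at 26.4, 25.0 and 22.1 FPKM in WT and at 3.63, 3.95 and 3.82 FPKM in KO. Every KO library was far below every WT library at these stages. In day 9 cells it was at 22.3, 21.9 and 21.8 FPKM in WT and at 3.80, 4.03 and 4.40 FPKM in KO, and in NSCs at 21.4, 16.5 and 16.1 FPKM in WT and at 4.37, 3.83 and 3.43 FPKM in KO. On the log2(FPKM + 1) scale, which understates changes of low genes, the difference of KO from WT was -2.07 ± 0.13 (SE) in mESCs (adjusted p = 1.9e-09, limma), -2.41 ± 0.13 in day 7 cells (8.96e-11), -2.18 ± 0.13 in day 9 cells (3.3e-10) and -1.96 ± 0.13 in NSCs (2.8e-09). It passed the test under all 16 alternative settings at each stage, with an adjusted p of at most 0.027. Smchd1 transcript was still listed in KO at 1.82 to 4.40 FPKM, and these values give RNA, not protein.

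None of the other 9 genes passed the test of KO against WT at any stage. In mESCs the count was 1 of 10 members, Smchd1, with 0.529% of 12105 genes called in either direction. In day 7 cells, day 9 cells and NSCs it was again Smchd1 alone, with 3.68%, 6.68% and 6.02% of genes called. For the 9 genes, the count at an unadjusted p under 0.05 was also 0 at all 4 stages with all libraries, and the lowest adjusted p was 0.52 for Ncapg in NSCs. Their log2 differences lay between -0.24 and 0.09 in mESCs, between -0.22 and 0.20 in day 7 cells, between -0.02 and 0.24 in day 9 cells and between -0.12 and 0.32 in NSCs. With replicate numbers as a block, whose pairs correlated in mESCs and NSCs, 98 genes in place of 64 and 1145 in place of 729 were called there, and Smchd1 was again the only member.

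The intervals of these differences were of unequal width between members. Rad21, the kleisin subunit that closes the cohesin ring, had the narrowest 95% intervals for the KO difference, from -0.10 to 0.27 in mESCs and from -0.31 to 0.06 in NSCs. Smc4, an ATPase subunit of condensin, had the widest, from -1.09 to 0.62 in mESCs and from -0.58 to 1.13 in NSCs, so a log2 difference of 1 lay inside the interval in one direction at each of these stages. Without the 4 libraries, the intervals of the 9 genes all fell between -0.48 and 0.52 in mESCs and between -0.39 and 0.47 in NSCs, and again none was called. In that setting Smc6 at day 9 was at an unadjusted p of 0.027, with a log2 difference of 0.24 ± 0.10 (adjusted p = 0.19, limma). Ctcf was at 54.4, 45.3 and 47.4 FPKM in WT day 7 cells and at 59.5, 55.6 and 53.8 FPKM in KO, a log2 difference of 0.20 ± 0.14 (adjusted p = 0.63, limma), and the groups overlapped.

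**Figure D3:**
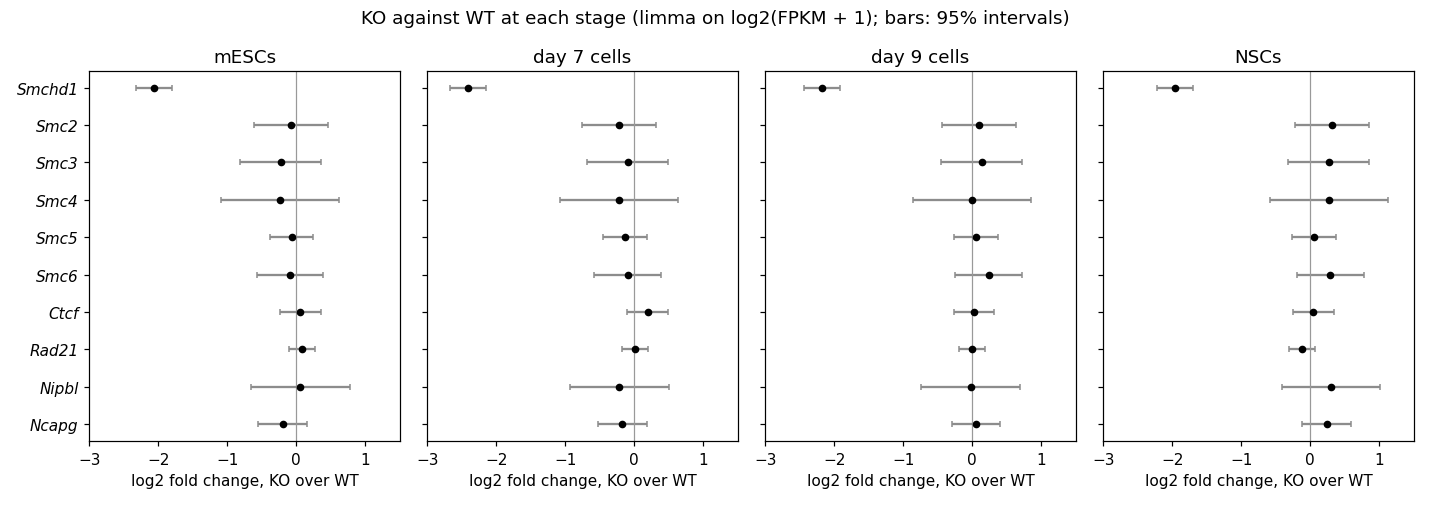
Each panel is a stage, and each row a gene. The x axis gives the log2 fold change of KO over WT on the log2(FPKM + 1) scale, points are estimates and bars 95% intervals. Smchd1 lies between -2.41 and -1.96 at the 4 stages, and the intervals of the other 9 genes include 0 in every panel.

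Partners outside the 10 genes did not pass the test either. Of 15 tested genes of cohesin and its regulators, 8 of condensin I and II, 6 of the SMC5/6 complex, 4 of meiotic cohesin and 7 around CTCF, members included, 0 were called in KO against WT at any of the 4 stages. Lrif1, which encodes a partner of SmcHD1 and is listed as 4933421E11Rik, was at 5.07 ± 1.36 FPKM in WT mESCs and 3.68 ± 0.278 in KO mESCs and was not called at any stage. The KO difference of day 7 cells, day 9 cells and NSCs was also set against that of mESCs. For these interactions 1.68%, 2.68% and 2.26% of genes were called in either direction, and 0 of 10 members in each. The count of members at an unadjusted p under 0.05 was 0 as well. The lowest adjusted p was that of Ncapg, whose KO difference was 0.44 ± 0.24 higher in NSCs than in mESCs (adjusted p = 0.44, limma). The lowest unadjusted p of limma was that of Smchd1 at day 7, at 0.071.

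Ratios of 2 members within a library do not depend on how libraries are scaled, and 6 of them were compared between KO and WT at 4 stages, 24 tests. An exact two-sided permutation test of 3 against 3 cannot give a p below 0.1, so none of them could pass 0.05. In 3 of the 24 the groups did not overlap, each with an exact p of 0.1 and an adjusted p of 0.8. Ctcf/Rad21 was 0.485, 0.467 and 0.520 in WT day 7 cells and 0.548, 0.538 and 0.587 in KO, and 0.357, 0.340 and 0.338 in WT NSCs and 0.427, 0.367 and 0.373 in KO, higher in every KO library. Smc5/Smc6, the ratio of the ATPases of the SMC5/6 complex, was 0.945, 1.13 and 1.04 in WT day 9 cells and 0.942, 0.847 and 0.941 in KO, lower in every KO library. Smc2/Smc4, the ratio of the ATPases of condensin, overlapped between genotypes at all 4 stages. It was 0.640 to 0.969 in mESCs, 0.371 to 0.619 in day 7 cells, 0.375 to 0.529 in day 9 cells and 0.530 to 0.716 in NSCs.

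Changes between stages are given as deposited, without subtraction of the median gene. Many are also given with all libraries scaled to the same sum, because sums of FPKM were lower in NSCs than in mESCs. As deposited, the median log2 change of all tested genes from mESCs to NSCs was -0.01 in WT and 0.00 in KO, and scaling all libraries to the same sum raised it to 0.36 and 0.44, and from mESCs to day 7 cells from -0.02 to 0.18 in WT and from -0.04 to 0.14 in KO. With that scaling, of the genes called between mESCs and NSCs 66.2% were higher in WT NSCs and 68.3% in KO NSCs, against 49.1% and 49.7% as deposited.

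Ncapg, a HEAT-repeat subunit of condensin I, had the largest log2 change of the 10 genes from mESCs to NSCs in WT and in KO as deposited. On the same-sum scale the KO values of Nipbl (0.94), Smchd1 (0.88), Smc4 (0.45) and Rad21 (0.43) were larger in size than that of Ncapg. It was at 42.3, 46.5 and 52.9 FPKM in WT mESCs, at 32.2, 34.2 and 36.6 FPKM in WT day 7 cells, at 31.0, 28.9 and 30.1 FPKM in WT day 9 cells and at 22.6, 17.7 and 15.2 FPKM in WT NSCs. In KO it went from 47.8, 47.8 and 29.9 FPKM in mESCs to 21.8, 22.3 and 21.1 FPKM in NSCs. All libraries of NSCs were below all libraries of mESCs in both genotypes. The log2 change from mESCs to NSCs was -1.32 ± 0.17 in WT (adjusted p = 3.9e-07, limma) and -0.88 ± 0.17 in KO (7.1e-05). It was called lower under all 16 alternatives in either genotype, and on the same-sum scale it was -0.88 in WT and -0.38 in KO. From day 9 cells to NSCs it was -0.69 ± 0.17 in WT (0.0017) and -0.50 ± 0.17 in KO (0.014), the latter -0.27 and not called on the same-sum scale. From mESCs to day 7 cells it was -0.44 ± 0.17 in WT (0.029), called under 10 of 16 alternatives, and -0.42 ± 0.17 in KO (0.037), called under 8 of 16. On the same-sum scale these changes to day 7 cells were -0.21 and -0.20, neither called. The difference between the genotypes in the change from mESCs to NSCs is the interaction given above and did not pass.

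Smc2 and Smc4 are the ATPases of condensin, and only Smc2 was called in a stage comparison as deposited. Smc2 was at 30.8, 48.9 and 49.8 FPKM in WT mESCs and at 36.7, 22.3 and 19.3 FPKM in WT NSCs, and these ranges overlapped. Its log2 change was -0.73 ± 0.26 (adjusted p = 0.015, limma) in WT and -0.33 ± 0.26 in KO (0.24). The change in WT was called under 11 of 16 alternatives, and on the same-sum scale it was -0.29 in WT and 0.17 in KO, neither called. With the 4 libraries left out it was -0.76 ± 0.17 in WT (0.00054) and -0.67 ± 0.15 in KO (0.00068). From mESCs to day 7 cells Smc2 changed by -0.65 ± 0.26 in KO (0.035), called under 10 of 16 alternatives and -0.43 on the same-sum scale, not called, and by -0.50 ± 0.26 in WT (0.10). Smc4 was at 62.2 to 73.1 FPKM in WT day 7 cells and 53.9 to 89.3 FPKM in WT day 9 cells, then at 26.9 to 55.8 FPKM in WT NSCs, and no change of it was called with all libraries. Its log2 difference between KO mESCs and KO NSCs was -0.06 as deposited and 0.45 on the same-sum scale. When those libraries were left out, the change of Smc4 from day 9 cells to NSCs was -0.60 ± 0.19 in WT (0.0131) and -0.59 ± 0.17 in KO (0.0058), and its change from mESCs to NSCs was -0.59 ± 0.21 in WT (0.0172) and -0.55 ± 0.19 in KO (0.0144).

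As deposited, the log2 changes of the other non-SMC subunits of condensin were smaller in size than that of Ncapg. On the same-sum scale those of Ncaph (0.81) and Ncapg2 (0.55) in KO were larger in size than that of Ncapg (-0.38). Of 8 condensin genes, 5 were called lower in WT NSCs than in WT mESCs and 0 higher, with a median log2 change of -0.46, and in KO 4 were called lower and 1 higher, with a median of -0.29. Of all tested genes 38.3% were called lower and 36.9% higher in WT and 38.2% and 37.7% in KO, and on the same-sum scale 25.3% lower and 49.6% higher in WT and 24.3% and 52.2% in KO. The list counts between mESCs and NSCs given here and below have to be read against these shares on each scale. Leaving out the 4 libraries gave 5 lower and 0 higher in WT and 6 lower and 1 higher in KO, with medians of -0.45 and -0.50. On the same-sum scale the counts were 1 lower and 1 higher in WT and 1 lower and 3 higher in KO, and the medians -0.02 and 0.22. Ncapd3, of condensin II, went from 19.4 ± 1.47 to 11.8 ± 2.81 FPKM in WT, a log2 change of -0.69 ± 0.13 (adjusted p = 3.6e-05, limma), and on the same-sum scale it was -0.27 and not called (0.093). Ncaph, the kleisin of condensin I, was at 42.1 ± 0.129 FPKM in WT mESCs and 47.5 ± 13.8 FPKM in WT NSCs, with a log2 change of 0.13 ± 0.13 (0.35) in WT and 0.30 ± 0.13 (0.035) in KO, and 0.57 and 0.81 on the same-sum scale, both called higher. Ncapg/Smc2 was 0.950 to 1.37 in WT mESCs and 0.617 to 0.792 in WT NSCs, and 0.905 to 1.21 in KO mESCs and 0.657 to 0.745 in KO NSCs, without overlap between these stages.

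Promoters of Ncapg and Smc2 are shown because both genes were called lower in NSCs in WT and serve mitosis. RefSeq promoters (GRCm38.p6) were at hand for 7 of the 10 members: Smchd1, Smc2, Smc3, Smc5, Smc6, Ctcf and Ncapg. Within the 120 bases before the start, 3 motifs were searched on both strands: TTTGAA, the core of the cell cycle genes homology region, CCAAT, the box bound by NF-Y, and GCGGGAA, an E2F site. Ncapg held TTTGAA from 30 bases before its start, and Smc2 held CCAAT from 119 bases before its start. The other 5 promoters held none of these letters in this window. Of 32851 promoters in the table, 7.12% held TTTGAA, 21.3% CCAAT and 2.05% GCGGGAA in the same window. The bases of Ncapg (chr5:45669805-45669924, plus strand) and Smc2 (chr4:52439101-52439220, plus strand) follow, with these matches in capitals, which did not overlap each other.
Ncapg: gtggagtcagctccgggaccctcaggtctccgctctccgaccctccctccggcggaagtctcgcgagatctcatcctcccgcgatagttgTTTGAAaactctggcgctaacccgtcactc
Smc2: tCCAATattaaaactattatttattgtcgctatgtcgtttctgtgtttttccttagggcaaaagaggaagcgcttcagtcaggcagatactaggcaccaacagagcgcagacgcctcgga

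Smc3, an ATPase subunit of cohesin, fell from mESCs to NSCs. It was at 50.2, 74.5 and 70.9 FPKM in WT mESCs and at 35.0, 32.7 and 20.1 FPKM in WT NSCs. In KO it was at 74.6, 72.2 and 30.7 FPKM in mESCs and at 36.8, 33.4 and 33.5 FPKM in NSCs, where replicate 3 of the mESCs lay below all libraries of NSCs. Its log2 change was -1.15 ± 0.28 in WT (adjusted p = 0.00099, limma), called under all 16 alternatives, and -0.65 ± 0.28 in KO (0.040), called under 7 of 16. On the same-sum scale it was -0.71 in WT (0.031) and -0.14 in KO (0.66). Without the 4 libraries it was -1.08 ± 0.12 in WT (4.8e-07) and -1.07 ± 0.11 in KO (1.5e-07).

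Rad21 was called lower in day 7 cells than in mESCs as deposited, and did not differ between mESCs and NSCs by the test. In WT it was at 119, 133 and 129 FPKM in mESCs, at 112, 97.1 and 91.2 FPKM in day 7 cells, at 117, 116 and 117 FPKM in day 9 cells and at 143, 125 and 144 FPKM in NSCs. Its log2 change from mESCs to day 7 cells was -0.34 ± 0.09 in WT (adjusted p = 0.0025, limma) and -0.41 ± 0.09 in KO (0.00043), and on the same-sum scale -0.11 and -0.19, neither called. From day 9 cells to NSCs it was 0.23 ± 0.09 in WT (0.032), a call lost in 8 of 16 alternatives, among them the fit without the 4 libraries (0.20 ± 0.10). From mESCs to NSCs it was 0.12 ± 0.09 in WT and -0.09 ± 0.09 in KO, not called, but 0.56 and 0.43 and called higher on the same-sum scale. The ratio Smc3/Rad21 went from 0.422 to 0.559 in WT mESCs to 0.139 to 0.261 in WT NSCs, and was 0.213 to 0.582 in KO mESCs and 0.253 to 0.309 in KO NSCs, where replicate 3 of the mESCs gave the lowest value. Nipbl was not called in any stage comparison as deposited: its log2 change from mESCs to NSCs was 0.22 ± 0.34 in WT and 0.46 ± 0.34 in KO, and in KO it was 0.94 and called higher on the same-sum scale (0.0235). Without the 4 libraries it was -0.02 ± 0.19 in WT and -0.03 ± 0.17 in KO.

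Of the regulators of cohesin, Esco2, Wapal and Cdca5 fell from mESCs to NSCs in both genotypes. Of 15 tested genes of cohesin and its regulators, 10 were called lower and 0 higher in WT NSCs than in WT mESCs, with a median log2 change of -0.92, and in KO 10 were lower and 1 higher, with a median of -0.74. On the same-sum scale 10 were lower and 3 higher in WT and 5 lower and 5 higher in KO, with medians of -0.51 and -0.25. Esco2, an acetyltransferase that acts on Smc3 in S phase, went from 40.7 ± 11.3 to 9.34 ± 3.06 FPKM in WT, with a log2 change of -2.02 ± 0.26 (adjusted p = 4.6e-07, limma). Wapal, which encodes the factor that releases cohesin from DNA, went from 48.6 ± 5.06 to 18.9 ± 0.905 FPKM, with a log2 change of -1.31 ± 0.10 (7.5e-11). Cdca5, whose product sororin protects cohesion, changed by -1.28 ± 0.18 (1.1e-06), and by -0.85 on the same-sum scale. Pds5b was the gene called higher in KO, by 0.37 ± 0.14 (0.025), a call lost without the 4 libraries (0.23 ± 0.11, 0.073), and in WT its difference was 0.17 ± 0.14 (0.30). That setting left 10 lower and 0 higher in each genotype, with medians of -0.87 and -0.82. Stag1 and Mau2 were called in neither genotype as deposited. With same-sum scaling Mau2 (0.51 in WT, 0.52 in KO) and Pds5b (0.59, 0.86) were called higher in both genotypes and Stag1 (0.25, 0.63) in KO.

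**Figure D4:**
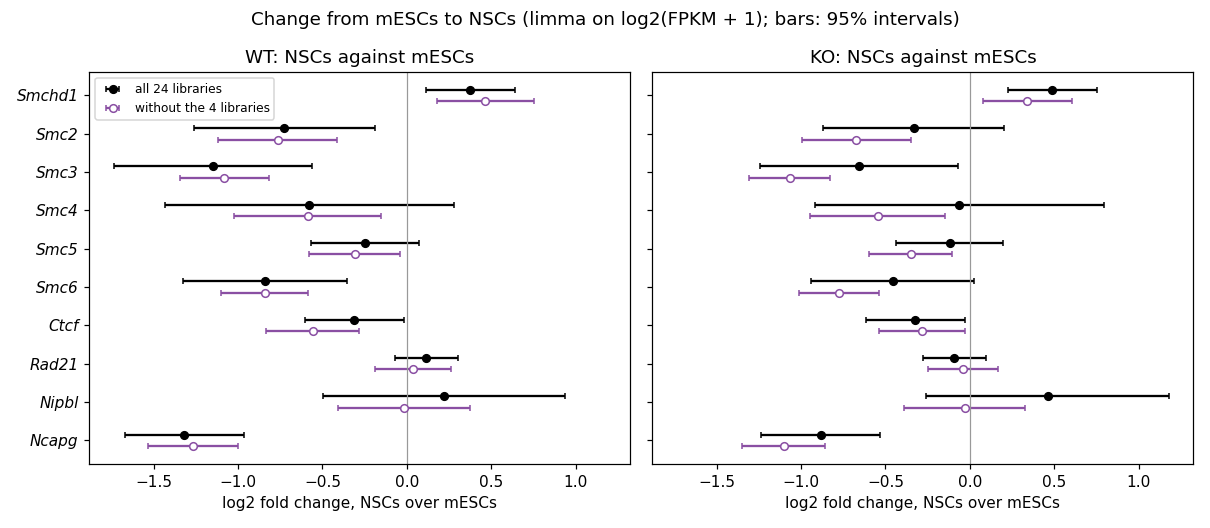
The x axis gives the log2 fold change of NSCs over mESCs on the log2(FPKM + 1) scale, for WT (left) and KO (right), with a row for each gene. Black points are estimates from all 24 libraries, open purple points those without the 4 libraries that stand apart, and bars are 95% intervals. The purple intervals of Ncapg and Smc3 lie below -0.8 in both genotypes, and those of Rad21 and Nipbl include 0.

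Of the ATPases of the SMC5/6 complex, Smc6 was called lower in WT NSCs as deposited and Smc5 was not. Smc6 was at 23.4, 30.9 and 35.1 FPKM in WT mESCs, at 19.4, 18.8 and 19.99 FPKM in WT day 7 cells and at 19.1, 16.9 and 12.6 FPKM in WT NSCs, so all libraries of mESCs were above those of both later stages. Its log2 change to NSCs was -0.84 ± 0.23 in WT (adjusted p = 0.0026, limma), a call lost on the same-sum scale (-0.41, 0.12) and kept under the other 15 alternatives, and -0.46 ± 0.23 in KO (0.080). The change to day 7 cells was -0.58 ± 0.23 in WT (0.038), called under 7 of 16 alternatives, and -0.58 ± 0.23 in KO (0.036), called under 8 of 16, and on the same-sum scale these were -0.35 and -0.36, neither called. Smc5 lay between 12.3 and 21.3 FPKM in all 24 libraries, and its log2 difference between mESCs and NSCs was -0.25 ± 0.15 in WT (0.15) and -0.12 ± 0.15 in KO (0.48), and 0.18 and 0.37 on the same-sum scale, where that of Smc6 in KO was 0.04. With the 4 libraries set aside, both genes were called lower in NSCs in both genotypes: Smc5 by -0.31 ± 0.13 in WT (0.0393) and -0.35 ± 0.12 in KO (0.0118), and Smc6 by -0.84 ± 0.12 in WT (8.3e-06) and -0.78 ± 0.11 in KO (6.2e-06). The ratio Smc5/Smc6 went from 0.561 to 0.721 in WT mESCs to 0.865 to 1.04 in WT day 7 cells, and from 0.553 to 0.713 to 0.780 to 1.17 in KO, without overlap. Of 6 tested genes of the complex, 4 were called lower in NSCs in each genotype and 0 higher, with medians of -0.62 in WT and -0.39 in KO, 5 were called lower in each genotype without the 4 libraries, with medians of -0.58 and -0.58, and on the same-sum scale 2 lower and 1 higher in WT and 1 lower and 0 higher in KO, with medians of -0.18 and 0.11. Nsmce4a, which encodes a kleisin subunit of the complex, went from 174 ± 25.2 to 74.0 ± 18.7 FPKM in WT, a log2 change of -1.24 ± 0.14 (5.9e-08), and of -0.79 on the same-sum scale.

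Ctcf, which encodes the loop anchor protein, varied less after the mESC stage. It was at 42.8, 78.7 and 60.9 FPKM in WT mESCs and at 54.3, 66.1 and 65.2 FPKM in KO mESCs, and at 42.6 to 59.5 FPKM in all 18 later libraries. Its log2 change from mESCs to NSCs was -0.31 ± 0.14 in WT (adjusted p = 0.052, limma) and -0.32 ± 0.14 in KO (0.043), called under 6 of 16 alternatives, and on the same-sum scale they were 0.13 and 0.19, neither called. Without the 4 libraries, of which replicate 1 of WT mESCs had the lowest Ctcf level of its group, it was -0.56 ± 0.13 in WT (0.0010) and -0.28 ± 0.12 in KO (0.040). Of 7 tested genes around CTCF, Ctcf included, 4 were called lower and 1 higher in WT NSCs and 6 lower and 0 higher in KO NSCs, with medians of -0.43 and -0.32. The counts were 5 lower and 1 higher in WT and 6 lower and 0 higher in KO without the 4 libraries, with medians of -0.54 and -0.40, and on the same-sum scale 1 lower and 2 higher in WT and 1 lower and 1 higher in KO, with medians of 0.01 and 0.19. Zfp143, a zinc finger factor found at loop anchors, changed by -0.80 ± 0.12 in WT (3.5e-06), and Maz by 0.54 ± 0.11 (0.00017). In WT they were -0.39 and 0.98 on the same-sum scale, both called. In KO that scale gave -0.18 for Zfp143, not called, and 0.73 for Maz, called.

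Smchd1 was called higher in day 7 cells and in NSCs than in mESCs in both genotypes, and day 9 cells were not tested against mESCs. The values given above put all WT libraries of day 7 cells, day 9 cells and NSCs above all WT mESCs. Its log2 change from mESCs to day 7 cells was 0.81 ± 0.13 in WT (adjusted p = 1.2e-05, limma) and 0.47 ± 0.13 in KO (0.0030), and from mESCs to NSCs 0.38 ± 0.13 in WT (0.011) and 0.49 ± 0.13 in KO (0.0015). With same-sum scaling the changes to day 7 cells were 1.03 in WT and 0.62 in KO and those to NSCs 0.80 and 0.88, all called higher. The WT change to NSCs was not called without replicate 1 of WT NSCs (0.25) or when only these groups were fitted. The day 7 changes of WT and KO differed by -0.34 ± 0.18 on the log2 scale (adjusted p = 0.58, limma), which did not pass. Lrif1 rose from mESCs to NSCs in both genotypes, by 0.45 ± 0.20 in WT (0.044) and 0.74 ± 0.20 in KO (0.0017), and by 0.83 and 1.18 on the same-sum scale.

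Counts of members called have to be read against how many genes changed. From mESCs to day 7 cells, 1 member was called higher and 3 lower in WT, where 29.1% and 30.2% of all tested genes were, and 1 higher and 4 lower in KO, against 29.5% and 31.8%. From day 7 to day 9 cells, 0 members were called in either genotype, against 18.5% higher and 15.3% lower in WT and 17.2% and 13.4% in KO, and at an unadjusted p under 0.05 only Rad21 was, higher in both. From day 9 cells to NSCs, 1 was called higher and 1 lower in WT, against 24.8% and 30.3%, and 0 higher and 1 lower in KO, against 27.2% and 32.4%. From mESCs to NSCs, 1 was called higher and 4 lower in WT, against 36.9% and 38.3%, and 1 higher and 3 lower in KO, against 37.7% and 38.2%. With all libraries, no stage comparison called a larger share of members than of genes in total. Without the 4 libraries, 1 member was called higher and 7 lower from mESCs to NSCs in each genotype, and from mESCs to day 7 cells 1 higher and 6 lower in WT and 1 higher and 5 lower in KO. Of all tested genes, 35.0% were then called higher and 36.4% lower from mESCs to NSCs in WT and 37.0% and 37.5% in KO, and to day 7 cells 28.7% and 29.9% in WT and 26.8% and 27.8% in KO. The members newly called lower at day 7 were Smc2 (-0.72 ± 0.15), Smc3 (-0.52 ± 0.11) and Ctcf (-0.49 ± 0.12) in WT and Smc3 (-0.33 ± 0.12) in KO. Replicate 1 of WT mESCs, left out there, was the lowest of its group for Smc2, Smc3 and Ctcf, so these WT calls follow in part from that choice. In KO, the mESC and day 7 libraries left out were each the lowest of their group for Smc3. From day 9 cells to NSCs that setting gave 0 higher and 3 lower in WT, against 23.4% and 28.5%, and 0 higher and 4 lower in KO, against 28.0% and 33.2%. Besides Ncapg and Smc4 these were Smc3 (-0.35 ± 0.11 in WT, -0.46 ± 0.10 in KO) and, in KO, Smc5 (-0.27 ± 0.10). With same-sum scaling the balance of the members differed: from mESCs to NSCs 2 were called higher and 2 lower in WT, against 49.6% and 25.3%, and 3 higher and 1 lower in KO, against 52.2% and 24.3%. From mESCs to day 7 cells that scaling gave 1 higher and 0 lower in each genotype, against 36.4% and 18.4% in WT and 36.1% and 20.9% in KO.

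Genes of meiotic cohesin and of DNA replication were lower in NSCs. Rec8, the meiotic kleisin, was at 10.8 ± 9.20 FPKM in WT mESCs and 0.0321 ± 0.0556 FPKM in WT NSCs, and was listed at 0 in all KO NSCs. Stag3 went from 3.58 ± 0.868 to 0.588 ± 0.0678 FPKM in WT. All 4 tested genes of this list were called lower in both genotypes and under both scales, with medians of -1.53 in WT and -1.38 in KO. Of 16 replication genes, 16 were called lower in both genotypes as deposited, and 15 in WT and 13 in KO on the same-sum scale. Of 20 mitotic genes, 11 were lower and 0 higher in WT and 13 lower and 2 higher in KO, and on the same-sum scale 8 lower and 6 higher in WT and 7 lower and 5 higher in KO. Leaving out the 4 libraries gave 11 lower and 0 higher in WT and 12 lower and 2 higher in KO. The sum over the 16 replication genes ranged from 661 FPKM in replicate 3 of WT NSCs to 1677 FPKM in another WT library of NSCs, and the part of cell cycle composition in the members' values was not tested.

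**Figure D5:**
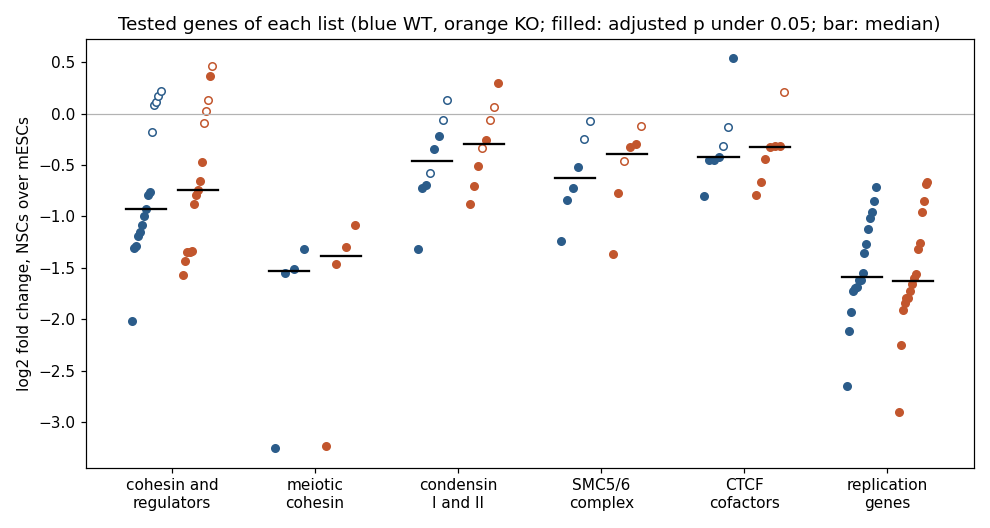
The y axis gives the log2 fold change of NSCs over mESCs, for the tested genes of 6 lists on the x axis, members included, in WT (blue) and KO (orange). Filled points passed an adjusted p of 0.05, open points did not, and bars are medians. The replication genes all lie below 0 with medians near -1.6, and the condensin and CTCF lists reach from -1.32 to 0.54 in WT.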

How the data were processed

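Poly(A) RNA of 24 libraries was measured with a stranded mRNA kit. Per the submitters' processing notes and the study's methods, reads were trimmed with Trim Galore 0.6.6 and aligned to mm9 with TopHat2 2.1.1, reads of rRNA and of the X chromosome were removed, and the authors deposited 1 table of FPKM values from Cuffdiff. The library normalization, read totals and the use of strand in counting are not given in the sources used here. A further 12 FPKM columns of other samples were not used.

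From these values, log2(FPKM + 1) was fitted with limma 3.58.1 in R 4.3.3, with 8 group means and moderated variances (trend and robust), over 12105 genes outside X and Y with a mean FPKM of at least 1. Genes were called at a Benjamini-Hochberg adjusted p under 0.05 over all of them, in 15 comparisons. Ratios of members were compared by exact permutation. Scripts were tested on simulated data. Alternatives were a pseudocount of 0.1, no filter, a mean FPKM of 5, same-sum and median-ratio scaling, only the groups compared, no trend or robust step, a replicate block and each replicate left out, and, chosen after the data were seen, a fit without the 4 libraries that stand apart and a correction for coding composition. Samples were grouped by genotype and stage from the labels. Same-numbered WT and KO libraries correlated in their deviations in mESCs (r of 0.289, 0.435 and 0.141) and NSCs (0.335, 0.184 and 0.24), so the numbers may pair them there. The main fit used no block, so its p-values ignore such pairing. As an alternative, the replicate block was fitted within every stage for KO against WT and within genotype between stages. It was thus also used where the numbers were not taken to pair libraries.

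The members and lists were chosen with earlier results of these data known. All 10 members are named, genes of the complex lists may be named, and for each member the 3 genes with the most similar pattern by Pearson's r over log2 levels.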

Additional observations from a re-analysis of the deposited data

How the results depend on the processing

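Smchd1 was called in KO against WT under every alternative at all 4 stages, and no other member was called there under any. Of called values of members, the only one that changed direction was Ctcf between KO mESCs and KO NSCs, at 0.19 with same-sum scaling. Among those not called, that scaling turned the mESC-to-NSC differences of Ctcf (0.13) and Smc5 (0.18) in WT and of Smc2 (0.17), Smc4 (0.45), Smc5 (0.37), Smc6 (0.04) and Rad21 (0.43, called higher) in KO. The cause of the shifts below was not tested.

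Genes called in KO against WT mESCs numbered 64, and 164 without a filter, 42 with same-sum scaling, 1 with only the groups compared and 14 without the 4 libraries that stand apart. In day 7 cells 446 became 226 at a mean FPKM of 5. In day 9 cells 809 became 1221 without a filter, 405 at a mean FPKM of 5 and 1377 with only the groups compared, and in NSCs 729 became 58 with only the groups compared. For the interaction with day 7 cells 203 became 75 at a mean FPKM of 5 and 81 without the 4 libraries. For day 9 cells 324 became 165 at a pseudocount of 0.1, 537 without a filter, 137 at a mean FPKM of 5 and 190 without the 4 libraries. For NSCs 274 became 159 at a mean FPKM of 5, 57 with only the groups compared and 106 without the 4 libraries.

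With the replicate block, genes called became 98 in mESCs and 1145 in NSCs, 330 for the day 7 interaction and 504 for the NSC interaction, and members called became 1 between WT day 9 cells and NSCs and 2 between KO mESCs and NSCs. The block changed no call of a member between KO and WT.

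Members called between WT mESCs and day 7 cells were 4, and 1 with same-sum scaling and 7 without the 4 libraries. Between WT day 7 and day 9 cells 0 became 1 with same-sum scaling, between WT day 9 cells and NSCs 2 became 5 with the composition correction, and between WT mESCs and NSCs 5 became 8 without the 4 libraries. Between KO mESCs and day 7 cells 5 became 3 without a filter, 1 with same-sum scaling, 2 with only the groups compared and 2 with the composition correction. Between KO day 7 and day 9 cells 0 became 2 with only the groups compared. Between KO day 9 cells and NSCs 1 became 3 with only the groups compared, 4 without the 4 libraries and 3 with the composition correction, and between KO mESCs and NSCs 4 became 2 without a filter and 8 without the 4 libraries.

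Same-sum scaling moved the share of calls that were higher from 38.6% to 22.7% in KO against WT day 9 cells, from 42.2% to 54.2% in NSCs, from 49.4% to 36.7% for the day 9 interaction and from 50.4% to 61.7% for the NSC interaction. Between stages in WT it went from 49.1% to 66.4% at day 7 and from 54.6% to 72.2% from day 7 to day 9, and in KO from 48.1% to 63.3% at day 7 and from 45.6% to 61.6% from day 9 to NSCs.

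With each replicate left out in turn, genes called in KO against WT ran from 20 to 112 in mESCs, 273 to 521 at day 7, 449 to 752 at day 9 and 406 to 1352 in NSCs, with 1 member each. Interactions ran from 119 to 253, 181 to 360 and 146 to 607, with 0 members. Members called between stages ran from 2 to 6 (WT day 7 against mESCs), 0 to 1 (WT day 9 against day 7), 1 to 3 (WT NSCs against day 9), 4 to 6 (WT NSCs against mESCs), 2 to 6 (KO day 7 against mESCs), 0 (KO day 9 against day 7), 1 (KO NSCs against day 9) and 2 to 6 (KO NSCs against mESCs).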

Other observations

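The 3 genes whose log2 level was most like that of each member across libraries are given as a description, with Pearson's r over 24 libraries, or over the 12 WT libraries for Smchd1. The points share stages and the composition of their libraries. For Smchd1 these were Lphn2 (0.988), Pphln1 (0.984) and Tead2 (0.969). For Smc3 they were Esf1 (0.978), Dnttip2 (0.946) and Casp8ap2 (0.934), for Rad21 Lnpep (0.892), Git2 (0.886) and Picalm (0.873), and for Nipbl Phip (0.936), Mki67 (0.917) and Cenpe (0.917). Ncapg was nearest to Psmc6 (0.968), Hsp90aa1 (0.965) and Ttk (0.949), a mitotic checkpoint kinase, and Smc4 to Cenpf (0.932), Matr3 (0.891) and Ssb (0.879). Smc2 and Smc6 were among the nearest genes of each other (0.929). Ctcf was nearest to Dhx9 (0.893), Exosc10 (0.870) and Ipo4 (0.867), and Smc5 to Smc4 (0.833), 5830418K08Rik (0.821) and Upf2 (0.811).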
